A study of Zea mays with 2 samples.

Results

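Isolated strong embryo peaks are methylation peaks of the maize embryo that stand high above background where the endosperm list has nothing nearby. They were chosen as embryo peaks on chromosomes 1 to 10 with a diffScore of at least 200 and no endosperm peak overlapping or within 1000 bp. The diffScore is -10 times the log10 of the peak p-value, so that a higher value means a clearer pile-up of reads. Of 353472 embryo peaks in all, 351748 lay on chromosomes 1 to 10, and 42989 of these were strong by this score. Among the strong embryo peaks 15326 were isolated, 25934 overlapped an endosperm peak by at least 1 bp, and 1729 did neither but had an endosperm peak within 1000 bp. The endosperm list held 114577 peaks on these chromosomes, and isolation depends on how many were called. A place without a listed endosperm peak is not thereby shown to be unmethylated in endosperm.

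The peaks came from MeDIP-seq, which enriches fragments of genomic DNA by an antibody to 5-methylcytidine before sequencing. One embryo and one endosperm library were made, both from ears of the inbred line B73 collected 14 days after selfing, and both tissues therefore carried the same parental genome. With 1 library per tissue, and peaks of 1 library not being replicates, no test was made between tissues or between classes of peaks. Intervals are 95% Wilson intervals for shares and order-statistic intervals for medians, and they cover counting error only. The deposited lists hold no read numbers, so the coverage of single peaks was not used here, and they hold no measure by which the labelled tissue could be checked.

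In plants, cytosines are methylated in the CG, CHG and CHH contexts, where H is any base but G, and most of this methylation lies on transposable elements. The maize genome is largely made of such elements, with genes lying between them in short islands. In Arabidopsis, the DNA glycosylase DEMETER removes methylation from the maternal genome in the central cell. Endosperm of Arabidopsis and rice is known to carry less methylation than embryo. For maize, the study names a DEMETER-like gene and another gene as a possible reason for the tissue difference, which was not tested here. MeDIP-seq measures methylated stretches of DNA rather than single cytosines and does not separate the 3 contexts.

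Since diffScore and distance chose the peaks, the values in this paragraph are a description of the choice. Isolated peaks made up 35.7% of strong embryo peaks, against 66.0% of all embryo peaks on the same chromosomes. The isolated share fell steadily with the diffScore of the embryo peak. It was 78.3% (78.0 to 78.6) at a diffScore of 50 to 60, 63.6% (63.3 to 64.0) at 100 to 150 and 45.8% (45.0 to 46.5) at 200 to 250. Above this it was 29.1% (28.2 to 30.0) at 300 to 400, 13.5% (12.5 to 14.6) at 400 to 600 and 1.90% (1.34 to 2.68) at 600 and above, where 31 of 1635 peaks were isolated. None of the 524 embryo peaks with a diffScore of at least 1000 was isolated, which allows a share of up to 0.728%. The overlapping share and the isolated share crossed between the classes 150 to 200 and 200 to 250.

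**Figure D1:**
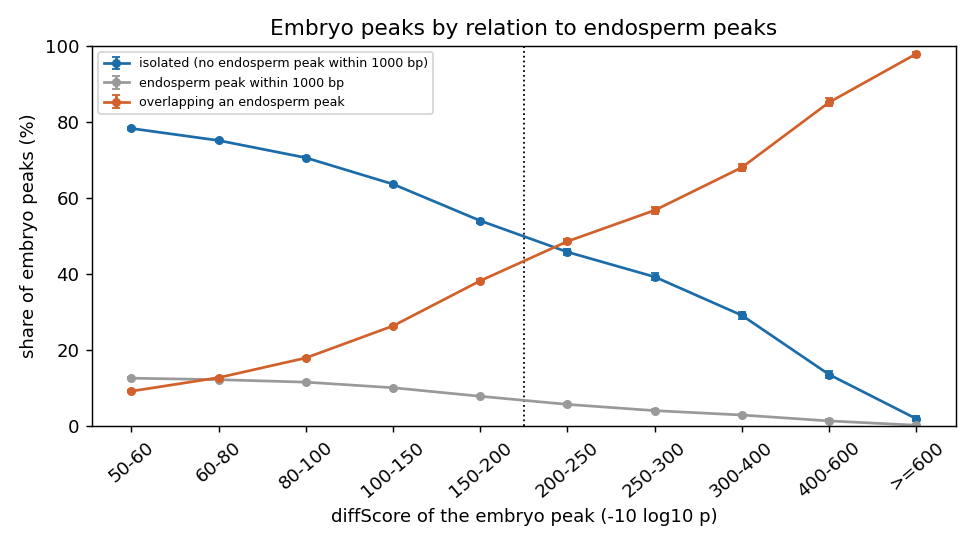
Share of embryo peaks on chromosomes 1 to 10 (percent, y axis) by diffScore class (x axis) for isolated peaks, peaks with an endosperm peak within 1000 bp and overlapping peaks, with 95% Wilson intervals as bars and a dotted line at the minimum diffScore of 200. The isolated share falls from 78.3% in the lowest class to 1.90% in the highest, and the overlapping share rises from 9.15% to 97.9%.

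Within the strong peaks, isolated peaks had a median diffScore of 247 (quartiles 219 and 291), against 287 (236 and 374) for overlapping peaks and 239 (215 and 281) for peaks with an endosperm peak within 1000 bp. The highest diffScore of an isolated peak was 873. It belonged to a peak of 792 bp on chromosome 1 from 217670134 to 217670925, with the nearest endosperm peak 14814 bp to its left and the next 48948 bp to its right. By contrast 643 overlapping peaks scored above this value, with the highest at 3172 on chromosome 1 from 234543681 to 234544954. The isolated peak with the highest diffScore of each other chromosome scored between 616 on chromosome 10, from 14132727 to 14133694, and 837 on chromosome 2, from 196650599 to 196651364. Of these 10 leading peaks, the one on chromosome 7 from 5040166 to 5041074 (diffScore 792) was farthest from endosperm, with 65146 bp to the nearest endosperm peak. The leading peak of chromosome 5, from 202421161 to 202421673 (diffScore 672), was the closest, at 2241 bp.

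At the limits of the choice the values on either side were nearly the same. The 3 lowest isolated strong peaks had a diffScore of 200, 200 and 200.01, and the 3 highest isolated peaks below the limit all had 199.97. The 3 closest isolated peaks lay 1001 bp from an endosperm peak, and the nearest strong peaks left out by distance lay 999, 998 and 997 bp away.

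Isolated strong peaks had a median length of 496 bp (interval 493 to 499) and quartiles of 402 and 604 bp. Overlapping strong peaks had a median of 522 bp (519 to 525) and quartiles of 403 and 664 bp. The lower quartiles of the classes were thus nearly equal, and the classes parted in the upper range. Together the isolated peaks covered 7.89 Mb and the overlapping peaks 14.8 Mb. Only 151 isolated peaks (0.985%, 0.841 to 1.15) were 1000 bp or longer, against 1085 overlapping peaks (4.18%, 3.95 to 4.43). Very short peaks were also rarer among isolated ones, with 716 (4.67%, 4.35 to 5.02) under 300 bp against 1618 (6.24%, 5.95 to 6.54). A longer embryo peak can be overlapped at more bases, so that the difference among long peaks may follow in part from the choice.

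The shorter median of isolated peaks went with their lower diffScore, since length rose with diffScore in both classes. Compared within narrow classes of diffScore, isolated peaks were the longer ones by median up to a diffScore of 400. At 200 to 250 the median was 445 bp (442 to 449) for 8035 isolated peaks and 435 bp (432 to 439) for 8526 overlapping peaks. At 250 to 300 it was 517 bp (514 to 523) against 497 bp (492 to 503), and at 300 to 400 it was 577 bp (571 to 582) against 559 bp (554 to 565). Peaks with an endosperm peak within 1000 bp had medians of 443, 514 and 579.5 bp in these classes. These were close to the medians of isolated peaks, so the longer median was not particular to isolated peaks. At 400 and above the order turned, with 636 bp (620 to 652) for 626 isolated peaks and 681 bp (674 to 690) for 5346 overlapping peaks. In that class the median diffScore itself was 444 for isolated and 507 for overlapping peaks, so it does not compare peaks of like score.

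The same signs were found chromosome by chromosome, although chromosomes of 1 library are not replicates. Without regard to diffScore, isolated peaks had the lower median length on 10 of 10 chromosomes, with differences from -39 to -18 bp. At 200 to 250 they had the higher median on 10 of 10 chromosomes (1 to 20.5 bp), at 250 to 300 on 10 of 10 (1 to 53.5 bp) and at 300 to 400 on 9 of 10 (-9 to 33 bp). At 400 and above they had the lower median on 10 of 10 chromosomes (-81 to -10.5 bp). The mean lengths in the 3 classes below 400 were almost the same, for example 472.2 bp for isolated and 471.7 bp for overlapping peaks at 200 to 250. The classes thus differed less in their mean than in their spread.

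Lengths of isolated peaks were more uniform than those of overlapping peaks within the classes of diffScore below 400. At 200 to 250, the quartiles were 370 and 546 bp for isolated peaks and 354 and 550 bp for overlapping peaks. At 300 to 400, the quartiles were 491 and 657 bp for isolated peaks and 448 and 675 bp for overlapping peaks. At 400 and above they were 552 and 721 bp against 536 and 864 bp, in a class where overlapping peaks had the higher diffScores. The longest isolated peak reached 2940 bp, on chromosome 5 from 105714562 to 105717501, with a diffScore of only 210, and lay 1542 bp from the nearest endosperm peak. The next was 1726 bp long, on chromosome 1 from 158992198 to 158993923 (diffScore 337), and the remaining ones of the 5 longest, on chromosomes 4, 2 and 10, were 1717, 1685 and 1549 bp long. The longest overlapping strong peak measured 7732 bp.

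**Figure D2:**
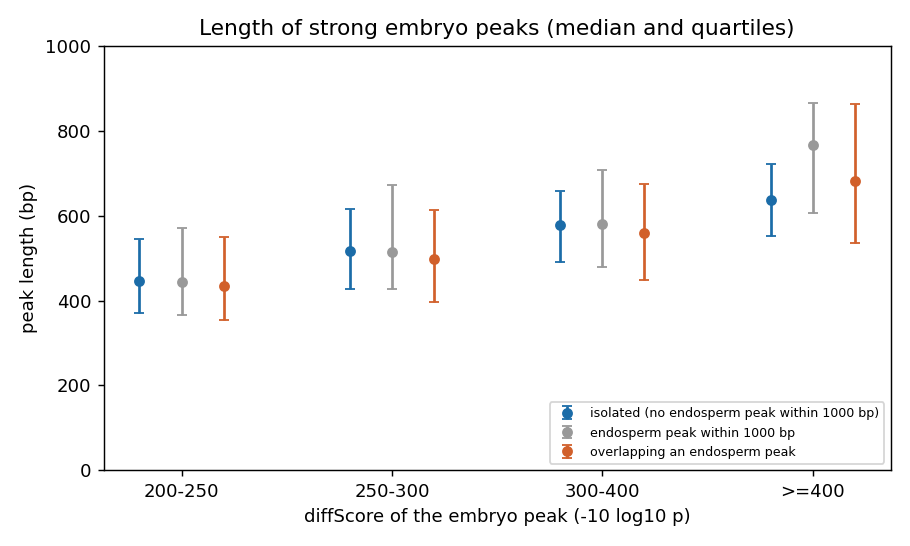
Length in bp (y axis) of strong embryo peaks by diffScore class (x axis) for isolated peaks, peaks with an endosperm peak within 1000 bp and overlapping peaks; points are medians and bars run from the lower to the upper quartile. Medians of isolated peaks are 445, 517, 577 and 636 bp from the lowest to the highest class, and those of overlapping peaks 435, 497, 559 and 681 bp. Bars are wider in overlapping than in isolated peaks. Peaks with an endosperm peak within 1000 bp have medians of 443, 514, 579.5 and 766 bp, and their bars are also wider than those of isolated peaks.

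The median distance from an isolated strong peak to the nearest endosperm peak was 8095 bp (7954 to 8253), with quartiles of 3627 and 14908 bp. The choice sets the lower end of this range at 1001 bp. Isolated embryo peaks with a diffScore below 200, of which there were 216707, lay at a similar distance, with a median of 7702 bp (7659 to 7741) and quartiles of 3663 and 14578 bp. Among the strong isolated peaks 1124 (7.33%, 6.93 to 7.76) lay no more than 2000 bp from an endosperm peak, against 10.01% (9.89 to 10.1) of the weaker ones. Distances over 20000 and up to 50000 bp were found for 2218 strong isolated peaks (14.5%, 13.9 to 15.0) and 13.8% (13.6 to 13.9) of the weaker ones. Only 142 strong isolated peaks (0.927%, 0.787 to 1.09) were more than 50000 bp away.

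Distance changed little with the diffScore of the isolated peak. The median was 8110 bp at 200 to 250, 7962 bp at 250 to 300, 8028 bp at 300 to 400 and 9496 bp at 400 and above. The class at 400 and above, which held 626 peaks, also had the highest lower quartile, 5080 bp.

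**Figure D3:**
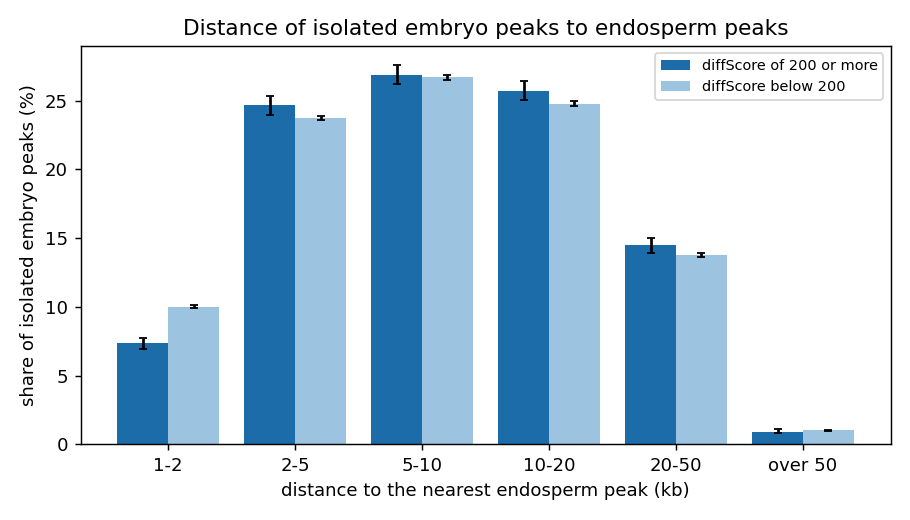
Share of isolated embryo peaks (percent, y axis) by distance to the nearest endosperm peak (kb, x axis) for peaks with a diffScore of 200 or more and below 200, with 95% Wilson intervals as bars. The class from 5 to 10 kb holds the largest share of both sets, with 26.9% and 26.7%. The classes are of unequal width, so the largest share does not mark the most frequent distance. The strong set is lower from 1 to 2 kb, with 7.33% against 10.01%.

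The isolated strong peak farthest from endosperm was on chromosome 3 from 200257502 to 200258001 (500 bp, diffScore 240), with 118443 bp free of endosperm peaks to its left and 121910 bp to its right. On chromosome 2, the peak from 31674204 to 31674839 (diffScore 342) had 115025 and 118160 bp free on its sides. A pair of neighbours on chromosome 3, from 173059225 to 173059814 (diffScore 304) and from 173062439 to 173062922 (diffScore 248), shared 1 endosperm-free stretch and lay 99190 and 102404 bp from the nearest endosperm peak. The last of the 5 farthest was on chromosome 1 from 235456456 to 235456805 (diffScore 397), 98013 bp away. These 5 peaks were of ordinary length, between 350 and 636 bp.

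Neighbouring endosperm peaks on chromosomes 1 to 10 left 114567 gaps between them, with a median of 10857 bp. Of these, 92203 gaps were long enough to hold the shortest isolated strong peak, and their median was 14983 bp. Isolated strong peaks occupied 12800 of these gaps, whose median length was 33134 bp (quartiles 19571 and 52580). A gap held 1.20 isolated strong peaks on average and 5 at most, and 10714 gaps held a single one. The 7 gaps with 5 isolated strong peaks had a median length of 119090 bp. Longer gaps leave more room for peaks, so that the longer gaps around isolated peaks follow in part from the choice.

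The endosperm peaks next to isolated strong peaks resembled endosperm peaks in general. Their median diffScore was 66.5 (quartiles 56.5 and 87.2), against 67.3 (56.7 and 89.3) for all endosperm peaks on chromosomes 1 to 10. They overlapped an embryo peak of their own in 74.9% of cases (74.2 to 75.6), against 74.3% (74.0 to 74.5) of all endosperm peaks. The highest endosperm peak under each overlapping strong embryo peak had a median diffScore of 93.6 (quartiles 67.5 and 142). Of the 25934 overlapping strong peaks, 14178 (54.7%, 54.1 to 55.3) overlapped only endosperm peaks with a diffScore below 100. Of all endosperm peaks on these chromosomes 81.4% (81.2 to 81.6) had a diffScore below 100. These shares are not quite alike, since the former takes the highest endosperm peak where an embryo peak overlapped more than 1, as 2271 did.

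Beyond the immediate surroundings, isolated and overlapping strong peaks lay in similar stretches of the genome. In the ring from 10 to 50 kb on both sides, isolated peaks had a mean of 4.54 endosperm peaks and overlapping peaks 5.11, with a median of 4 in both. The mean over all embryo peaks was 4.66. Isolated peaks had the lower mean on 10 of 10 chromosomes. The choice sets no limit in the ring itself but uses the same endosperm list. Where endosperm peaks are denser over a long stretch, it places more embryo peaks in the overlapping class. The difference in endosperm peaks may thus follow in part from the choice, also at like diffScore, and these are descriptions. The largest gap was on chromosome 6, with 4.61 against 6.95, where the interval from 10 to 13 Mb held 312 strong peaks of which only 11 were isolated. Without this interval the mean of overlapping peaks over all chromosomes was 4.95 and that of isolated peaks 4.53. In the same ring, the mean number of embryo peaks of any diffScore was 14.1 around isolated and 14.4 around overlapping peaks, and 14.2 around the latter without the interval.

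The difference in endosperm peaks was also seen at like diffScore. Without the interval of chromosome 6, isolated peaks with a diffScore of 200 to 250 had a mean of 4.47 endosperm peaks in the ring and overlapping peaks 4.86. At 300 to 400 the means were 4.62 and 4.85. The difference in embryo peaks was not kept, since at 200 to 250 isolated peaks had a mean of 14.0 embryo peaks and overlapping peaks 14.2, but at 400 and above 14.6 and 14.5. No endosperm peak at all was found in the ring of 328 isolated peaks (2.14%, 1.92 to 2.38), 487 overlapping peaks (1.88%, 1.72 to 2.05) and 2.15% (2.10 to 2.20) of all embryo peaks. Stretches empty of endosperm peaks over 10 to 50 kb on both sides were thus rare around all of them.

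Closer by, weaker embryo peaks were slightly less frequent around isolated than around overlapping strong peaks. Within 5 kb, the mean number of embryo peaks with a diffScore below 200 was 1.31 for isolated and 1.44 for overlapping peaks. No such peak was found near 3964 isolated peaks (25.9%, 25.2 to 26.6) and 5875 overlapping peaks (22.7%, 22.1 to 23.2). These counts were not set against the density of weaker embryo peaks along the chromosomes.

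Most isolated strong peaks had no other isolated strong peak within 10 kb. This depends on their number per Mb, and it was not set against the spacing that this number alone would give. Only 2616 of them (17.1%, 16.5 to 17.7) had another isolated strong peak within 10 kb, and the median distance from one to the next was 41767 bp. For overlapping strong peaks, which were more numerous, the corresponding share was 29.7% (29.1 to 30.3) and the median distance 22155 bp. Without the interval of chromosome 6 the share of overlapping peaks was 29.0% (28.4 to 29.5). When peaks no more than 10 kb apart were put into one group, 12710 isolated strong peaks remained single, 1155 groups held 2 peaks, 94 held 3 and 6 held 4, and no group was larger.

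The nearest strong embryo peak of an isolated peak was itself isolated in 40.2% of cases (39.4 to 41.0), above the 35.7% that isolated peaks make up of all strong peaks. For overlapping peaks the nearest strong peak was isolated in 31.9% of cases (31.4 to 32.5). The choice makes close neighbours alike, because 1 endosperm-free stretch serves them both. This was seen in the distances, as the share was 86.8% (81.3 to 90.9) for the 190 isolated peaks with a strong neighbour within 1000 bp and 47.1% (45.3 to 49.0) from 1000 to 5000 bp. It was 37.5% (36.3 to 38.7) from 5000 to 20000 bp, 38.6% (37.2 to 40.1) from 20000 to 50000 bp and 37.2% (35.2 to 39.4) above 50000 bp. Beyond 5000 bp the share thus remained slightly above that of strong peaks in general, and only above 50000 bp did its interval include the general share.

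Along the chromosomes, the order of strong peaks gave 9244 unbroken runs of isolated peaks, 60.6% of which consisted of a single peak. That percentage depends on the isolated share of strong peaks and was not set against it. The longest run had 12 isolated strong peaks in sequence, on chromosome 9 from 57867627 to 58210024. Their diffScores lay between 201 and 348 with a median of 266, and their lengths between 331 and 696 bp with a median of 540 bp. The run was chosen after its values were seen. It was not free of endosperm peaks, since 15 endosperm peaks and 67 embryo peaks of any diffScore lay in the 342398 bp, and the isolated peaks were between 1455 and 48103 bp from endosperm. The longest run of overlapping strong peaks had 108 peaks, on chromosome 6 from 11752341 to 12627171.

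Among the 6 groups of 4, the first by position was on chromosome 2 from 39984385 to 39998939, with 4 isolated strong peaks in 14555 bp. Their diffScores were 273, 204, 259 and 239, their lengths 814, 795, 474 and 532 bp, and their distances to endosperm 6200, 4083, 5625 and 6773 bp. One endosperm peak lay inside the group, under a strong embryo peak between the second and the third isolated peak. The next group, on chromosome 3 from 80522091 to 80541120, held 4 isolated peaks, no other embryo peak and no endosperm peak in 19030 bp. In the group on chromosome 3 from 212800537 to 212826688, again free of endosperm peaks, the first peak was 1162 bp long with a diffScore of 434, and the others had diffScores of 240, 263 and 233.

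**Figure D4:**
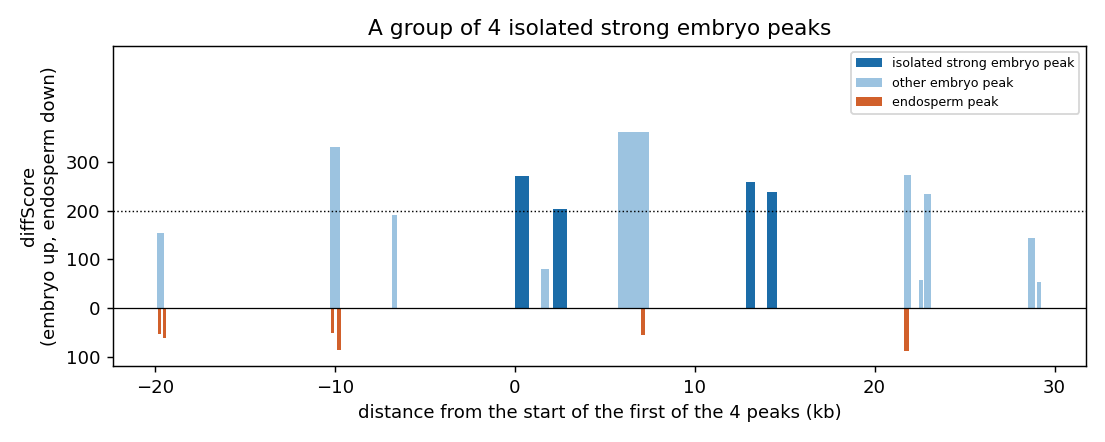
Map of the group of 4 isolated strong embryo peaks on chromosome 2, with the distance from the start of the first of them in kb (x axis) and the diffScore of each peak (y axis, embryo upward and endosperm downward, not comparable between lists); the dotted line marks a diffScore of 200. The 4 isolated peaks, with diffScores between 204 and 273, lie on either side of a strong embryo peak that overlaps an endosperm peak.

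Isolated strong peaks were about equally dense on the 10 chromosomes. Their number per Mb, with the end of the last listed peak taken as the end of the chromosome, ran from 7.08 on chromosome 7 to 7.76 on chromosome 1. That of overlapping strong peaks ran from 11.8 on chromosome 3 to 14.3 on chromosome 6. The isolated share of strong peaks was lowest on chromosome 6 (33.3%, 31.8 to 34.8) and highest on chromosome 3 (37.2%, 35.8 to 38.6), with chromosome 9 next (37.1%, 35.5 to 38.8). The intervals of most chromosomes overlapped, and the order of chromosomes changed with the limits. Chromosome 7 had the lowest share at a minimum diffScore of 300 and without the interval from 10 to 13 Mb of chromosome 6. Chromosome 9 had the highest share with a distance of 500 bp and with embryo peaks within 500 bp joined, and chromosome 8 when only endosperm peaks of a diffScore of at least 100 were counted. Without the interval from 10 to 13 Mb the share of chromosome 6 was 35.9% (34.4 to 37.5), and the interval itself had 3.53% (1.98 to 6.20). The median distance to endosperm also varied little, from 7748 bp on chromosome 5 to 8415 bp on chromosome 1, and the median length lay between 487 bp on chromosome 6 and 508 bp on chromosome 3.

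Along the chromosome, isolated strong peaks were more even than overlapping ones. With each chromosome cut into 10 equal parts, their number per Mb was lowest in part 5, 6.84, and highest in part 8, 7.97, counted from the start of the chromosome. Overlapping strong peaks had 11.1 per Mb in part 3 and 15.2 in part 1. Without the interval of chromosome 6, part 1 had 13.9 overlapping and 7.47 isolated peaks per Mb, close to the 13.8 overlapping peaks per Mb of part 9. Embryo peaks of any diffScore went the other way, with 187 per Mb in part 5 and 154 in part 10. Strong peaks were thus relatively more frequent near the ends, making up 14.3% of embryo peaks in part 1, 10.1% in part 5 and 14.0% in part 10.

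The isolated share of strong peaks was lowest in the first part of the chromosomes, 31.4% (30.1 to 32.7), and highest in part 3, 38.0% (36.5 to 39.5). From part 2 to part 10 it stayed between 34.7% and 38.0%. Without the interval of chromosome 6 the first part had 33.3% (31.9 to 34.6). The first part was not low on every chromosome. It had the lowest share of the 10 parts on 4 chromosomes, among them chromosome 6 with 21.9%, chromosome 2 with 26.2% and chromosome 9 with 27.1%, but the highest of its chromosome on chromosome 1, with 38.8%. The regions within 20% of the chromosome length from either end together had an isolated share of 34.3% (33.6 to 35.0) and the central 20% of the length 36.2% (35.2 to 37.3), with the outer regions lower on 8 of 10 chromosomes and higher on chromosomes 1 and 9. Isolated peaks were shorter near the ends, with a median length of 472 bp in the first part and 473 bp in the last, against 522 bp in part 4 and 524 bp in part 5. The same was not taken for overlapping or for all strong peaks, nor at like diffScore, so it cannot be read as a trait of isolated peaks.

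**Figure D5:**
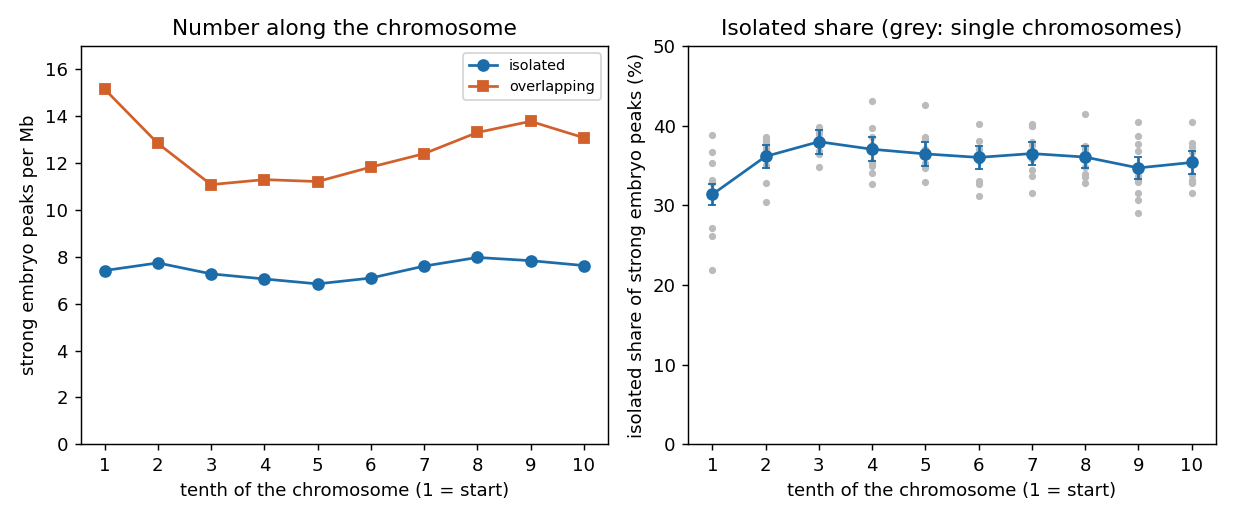
Strong embryo peaks per Mb, isolated and overlapping (left), and the isolated share of strong embryo peaks in percent with 95% Wilson intervals (right, grey points for single chromosomes), by the 10 equal parts of the chromosome from its start (x axis). Isolated peaks stay between 6.84 and 7.97 per Mb, whereas overlapping peaks range from 11.1 to 15.2 (13.9 in part 1 without the interval of chromosome 6), and the isolated share is lowest in part 1, with 31.4%.

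In 2054 windows of 1 Mb, the number of isolated strong peaks had a median of 7 (quartiles 5 and 10), ran from 0 to 21 and was 0 in 7 windows. The ratio of variance to mean over windows was 1.33 for isolated peaks and 2.70 for overlapping peaks, and 1.33 and 1.85 without the windows of the chromosome 6 interval. Overlapping peaks were more numerous, with a median of 12 per window without the interval. The ratios were not compared at a like number of peaks per window, on which they can depend. Over all 2054 windows, the number of isolated peaks had a Spearman's rho of 0.05 with the number of endosperm peaks, and that of overlapping peaks had 0.53. Windows share the library and are not independent. An endosperm peak can only remove a peak from the isolated set, and each overlapping peak needs an endosperm peak by definition. The difference between the values of rho thus follows in part from the choice, and these are descriptions. The fullest window was on chromosome 8 from 118 to 119 Mb, with 21 isolated and 8 overlapping strong peaks among 201 embryo and 39 endosperm peaks.

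For the start of chromosome 1, the study's list of embryo peaks and gene regions gives the genes that a peak touches. The rows at hand end at position 22623587, and of the 196 isolated strong peaks up to there 55 could be assigned to a gene region. The same share was not taken for overlapping or for all embryo peaks, so the count is not a trait of isolated peaks. A promoter was the region touched by the isolated peak of highest diffScore among them, from 22244865 to 22245409 (diffScore 457, 5751 bp from endosperm), which belongs to GRMZM5G880508. A pair of isolated peaks lay close together, from 19703626 to 19703948 (diffScore 342) and from 19704399 to 19704769 (diffScore 447). The former touched the promoter of GRMZM2G113775 and the transcriptional termination region (TTR) of GRMZM2G113763, and the latter the 3′ UTR of GRMZM2G107437 and an exon of GRMZM2G113763. They were 40368 and 39547 bp from the nearest endosperm peak, the farthest among the named gene peaks. The nearest endosperm peak was 1088 bp away for the promoter peak of GRMZM2G502743, from 15159964 to 15160313 (diffScore 416). It was 1168 bp away for a peak in the promoters of both GRMZM2G066272 and GRMZM2G147481, from 19822126 to 19822854 (diffScore 299.6).

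Promoters were also touched in GRMZM2G006676 (diffScore 382), GRMZM2G028521 (332), GRMZM2G086604 (318) and GRMZM2G343157 (304), with endosperm peaks 4374, 2343, 10758 and 4490 bp away. Of the named genes, GRMZM2G418037 is in the study's list of transposable elements, as an unclassified retrotransposon, and none was found in the rows at hand of its lists of selected and imprinting genes. Retrotransposons copy themselves through RNA and are a main target of DNA methylation in plants. This gene held isolated strong peaks in an intron, from 10365181 to 10366164 (984 bp, diffScore 330), and in the promoter, from 10359556 to 10359852 (297 bp, diffScore 260), 28766 and 28319 bp from endosperm. The intron peak was the longest of the named gene peaks.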

How the data were processed

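Genomic DNA of B73 embryo and endosperm was immunoprecipitated with a 5-methylcytidine antibody and sequenced, 1 library each. After cleaning with fastx, reads were aligned by the authors with Bowtie2 2.0.5 at default settings, and MACS was run on each library to find peaks. The genome build is not given in the sources used here. Each deposited list gives one score per peak, called diffScore by the authors, which is at least 50 and depends on the depth of its library, so it was not compared between tissues.

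Starts were changed from 0-based to 1-based. Peaks were related by overlap of at least 1 bp and by the free bases between them, with Python 3.11.15, scipy 1.17.1, numpy 2.4.6 and pandas 2.3.3, and drawn with matplotlib 3.10.9. The distance code was tested on simulated data and checked against bedtools 2.31.1.

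The peaks, limits and comparisons were chosen with earlier results of these data known. Peaks named were the highest per chromosome, the 5 longest, the 5 farthest, the first 3 groups and those at each limit. Genes named were those of the 10 isolated strong peaks of highest diffScore that the study's gene table places, and those in its gene lists; 5 AC-clone models at the peaks of GRMZM2G028521 and GRMZM2G006676 are left out. Alternatives were other limits of diffScore (150, 300) and distance (500, 5000 bp), endosperm peaks of at least 100, joined embryo peaks, other group distances and 10 parts per chromosome.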

Additional observations from a re-analysis of the deposited data

Results flagged for a closer look

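On unplaced sequences, which the comparisons do not use, 379 strong embryo peaks were listed, and 41 of them (10.8%, 95% Wilson interval 8.08 to 14.3) had no endosperm peak within 1000 bp. They are given because these sequences stand outside the comparisons; there is no control library, and the count, which the choice of peaks sets, was not tested. On chromosomes 1 to 10 the share was 35.7%. The order and spacing of pieces joined into the unplaced sequence are not known, so that distances on it may not be distances in the genome. On the chloroplast and on the mitochondrion 2 strong embryo peaks each were listed, and none of them was isolated.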

How the results depend on the processing

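No paired analysis was possible because each tissue has 1 library, and no library could be left out. Chromosome 6 from 10 to 13 Mb was chosen after seeing the data. Leaving it out changed the number of isolated peaks, which has no interval, from 15326 to 15315. It moved none of the other summary values beyond its counting error. Cutting into 10 parts per chromosome gives the same outer and central regions as 5 parts. The median length of isolated minus overlapping strong peaks was -26 bp. It turned to 10, 20 and 18 bp within diffScores of 200 to 250, 250 to 300 and 300 to 400, and was -45 bp from 400 up.

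With a minimum diffScore of 150 there were 32683 isolated peaks (43.5% of strong peaks, length difference -37 bp), 31.2% had another within 10 kb and the nearest strong peak was isolated in 49.8%. With 300 there were 3345 (21.8%, -20 bp), with 5.89% and 25.9%, a median distance of 8294 bp and a ratio of the highest to the lowest chromosome share of 1.29, against 1.12. With a distance of 500 bp the isolated share was 37.4%, the median distance 7634 bp and the share with an isolated nearest strong peak 41.4%. With 5000 bp these were 24.2%, 11875 bp and 36.2%, the length difference was -40 bp and 17.9% had another within 10 kb. With endosperm peaks of a diffScore of at least 100 only, 30474 peaks (70.9%) were isolated, 38577 bp from endosperm by median, 28.8% had another within 10 kb, the nearest strong peak was isolated in 75.2%, and the difference in isolated share between the outer regions and the central one was -4.70 percentage points, against -1.90. With embryo peaks within 500 bp joined the isolated share was 36.2% and the length difference -87 bp. Within 5 and 20 kb, 9.95% and 29.5% had another isolated strong peak. Looser limits give more peaks by construction; other causes were not tested.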
